A study of Mus musculus with 6 samples.

Results

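The D-type cyclins and the inhibitors of cyclin-dependent kinases (CDKs) are described here as 10 genes, chosen by name: Ccnd1, Ccnd2 and Ccnd3, the CIP/KIP inhibitors Cdkn1a, Cdkn1b and Cdkn1c, and the INK4 inhibitors Cdkn2a, Cdkn2b, Cdkn2c and Cdkn2d. All 10 were among the 49492 gene rows of the count table, and all 10 passed the filter on low counts with 19284 genes in total. The data are poly(A) RNA-seq of palatal shelves, the paired outgrowths that form the roof of the mouth, from C57BL mouse embryos at E14.5. The groups compared were control embryos carrying the PRMT1 fl/fl alleles without Cre and deletion embryos carrying Wnt1-Cre and the same PRMT1 fl/fl alleles (n = 3 libraries each). Both groups thus share the floxed alleles, and no group carried Wnt1-Cre alone, so an effect of Cre itself and an effect of the deletion cannot be told apart. Wnt1-Cre is active in the neural crest, the origin of most palatal mesenchyme but not of its epithelium, muscle or blood. The series' design text names proliferation and cell cycle control as the processes in which changes were looked for after loss of Prmt1, the main asymmetric arginine methyltransferase.

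D-type cyclins are the regulatory subunits of the kinases CDK4 and CDK6, and carry growth factor signals into the G1 phase, where these kinases phosphorylate the retinoblastoma protein and release E2F transcription factors. INK4 proteins bind CDK4 and CDK6 and keep the D cyclins off them. CIP/KIP proteins bind cyclin-CDK complexes more broadly, restrain CDK2, and also help D cyclins and CDK4 assemble. Cdkn1c is an imprinted gene expressed mainly from the maternal copy, and mice lacking it have cleft palate.

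Libraries are named by the first part of the count table's column names: cont212, cont213 and cont220 for control, and mut208, mut211 and mut221 for deletion. They held 44919889 to 50022829 estimated counts. Prmt1 was lower in every deletion library than in every control (246.3 to 257.9 CPM against 200.9 to 217.3 CPM, where CPM is the count scaled to the library total). The palate mesenchyme markers Twist1, Prrx1, Pdgfra, Osr2, Msx1 and Col3a1 were present in all libraries. Msx1 varied widely within both groups, at 51.7, 122.2 and 178.2 CPM in cont212, cont213 and cont220, and 69.0, 61.1 and 188.2 CPM in mut208, mut211 and mut221. Libraries cont212 and cont213 stood apart in Xist, the RNA of the inactive X chromosome, at 15.5 and 16.0 CPM against 3384 to 4487 CPM elsewhere, and held nearly all Y-linked reads (247 and 254 CPM over 4 genes, at most 0.402 CPM elsewhere). By these genes, cont220 was the only control of the same sex as the deletion libraries, and the fold change against it alone is given for each of the 10 genes. Sums, ratios and the other genes were not tested against it alone. Nothing in the labels ties each library to its own embryo, so the p-values cover library-to-library spread, which may be technical.

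Of the 10 genes, 4 were lower in the deletion libraries and 0 were higher by edgeR's quasi-likelihood test at an adjusted p under 0.05, where 3.37% of all tested genes were lower and 3.65% higher (7.01% together). The genes that fell were Ccnd1, Cdkn1a, Cdkn2b and Cdkn2c: a cyclin that promotes G1 progression and 3 inhibitors. In the fit of all libraries without a covariate, no gene of the 10 was higher at an unadjusted p under 0.05, nor by DESeq2. Ccnd3 was higher at that unadjusted level in other fits, given below. In 6 of the 10, all deletion libraries lay below all controls, which held for 13.5% of tested genes (27.5% were separate in either direction). The median log2 fold change (deletion minus control) over the 10 was -0.30, against -0.00013 over all tested genes. The 10 genes, and the gene lists used below, were chosen with earlier results of these data known. The shares of all tested genes therefore stand beside them as description, not as a test of the group. Since the RNA came from whole shelves, fewer cells of a type and less RNA per cell cannot be told apart.

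The calls depended on single libraries. Without cont213, 0 of the 10 were called (5 at an unadjusted p under 0.05), without mut208 only Cdkn2b, and without mut211 Ccnd1 and Cdkn1a. With cont220 as the sole control, 0 of the 10 were called by edgeR, with Ccnd1, Ccnd2 and Cdkn2c at an unadjusted p under 0.05, a fit in which only the deletion libraries supply the spread.

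**Figure D1:**
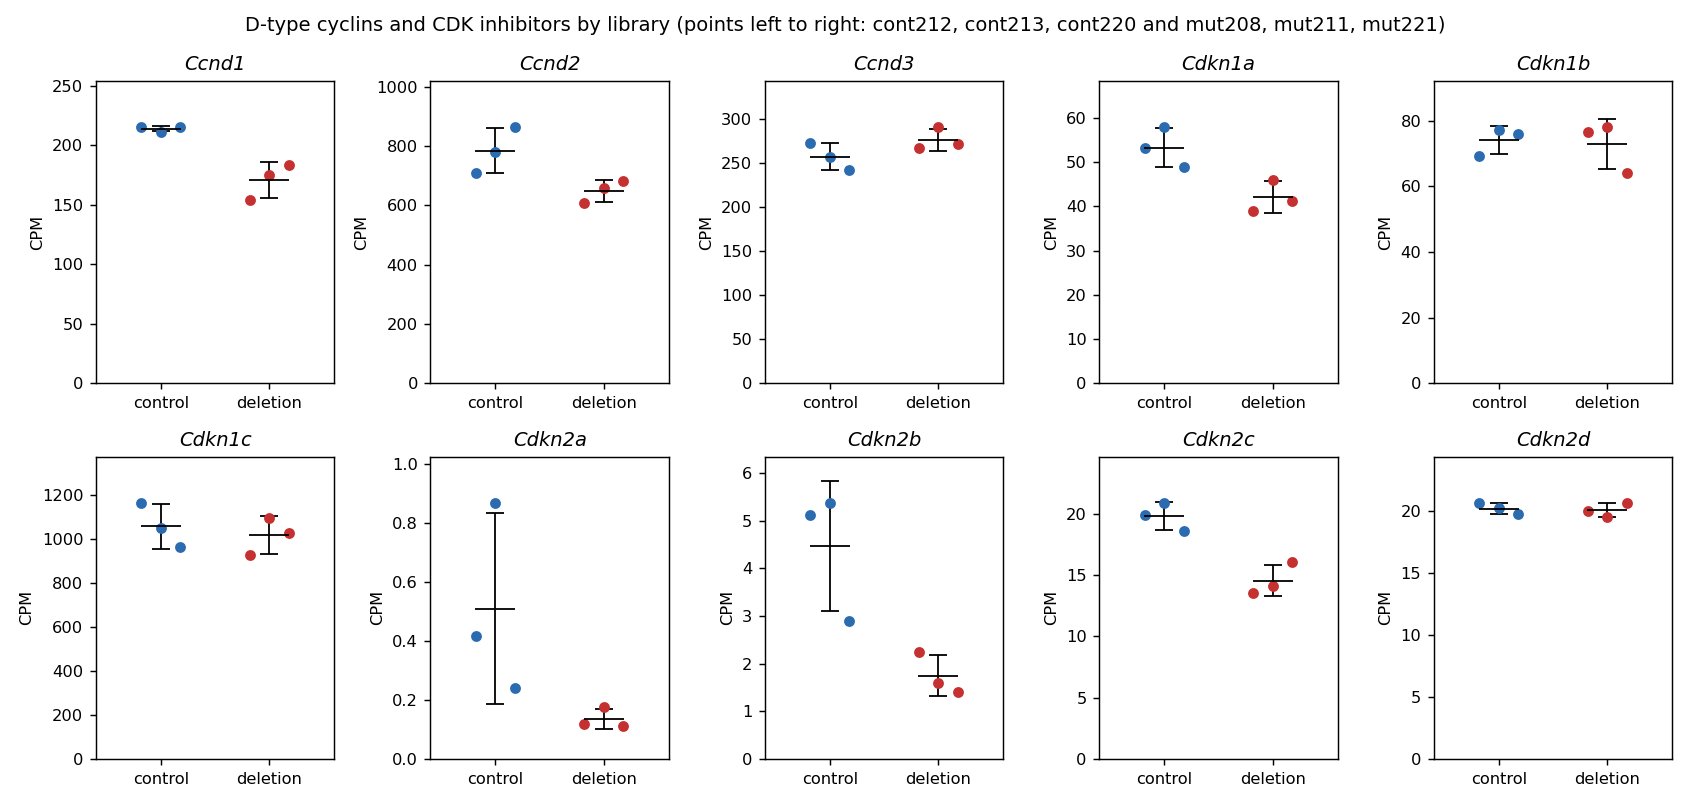
CPM of each of the 10 genes, with axes from 0. Points are libraries, blue for control (cont212, cont213 and cont220 from left to right) and red for deletion (mut208, mut211 and mut221), and bars give the mean and SD of 3 libraries. Ccnd1, Ccnd2, Cdkn1a, Cdkn2a, Cdkn2b and Cdkn2c have no overlap between groups. Of these, cont220 is the lowest control for Cdkn1a, Cdkn2a, Cdkn2b and Cdkn2c and the highest for Ccnd2. It is also the lowest control for Ccnd3, Cdkn1c and Cdkn2d, whose groups overlap.

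Among the D cyclins, Ccnd1 was lower in the deletion libraries, Ccnd2 had a difference of nearly the same size that did not pass, and Ccnd3 lay slightly the other way. Ccnd1 (chromosome 7, 144929931 to 144939925, mm10, minus strand), the D cyclin most widely induced by mitogens, measured 214.9, 211.3 and 215.1 CPM in cont212, cont213 and cont220, against 154.3, 175.1 and 183.6 CPM in mut208, mut211 and mut221. The controls lay within 4 CPM of one another, and every deletion library lay below them. Ccnd1 fell 1.25-fold, a log2 fold change of -0.32 ± 0.06 (SE; 95% interval -0.46 to -0.18; edgeR adjusted p = 0.0139). Measured against cont220 only, the log2 fold change was -0.33 (edgeR adjusted p = 0.259). It also did not pass without cont213 (-0.33, edgeR adjusted p = 0.0723) or mut208 (-0.25, 0.0531), and over 15 alternatives its adjusted p ran from 0.000214 to 0.259. Gene LTO1, on the opposite strand, overlaps 1771 exonic bases of Ccnd1 in the annotation and, with no strand setting known, reads of that stretch cannot be assigned to either.

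Ccnd2 (chromosome 6, 127125162 to 127152193, minus strand), a D cyclin of progenitor cells in many embryonic tissues, measured 710.0, 779.3 and 863.5 CPM across the controls, against 607.0, 657.4 and 681.5 CPM across the deletion libraries. The groups did not overlap, but the controls spread more widely than those of Ccnd1, and cont220 was the highest. The log2 fold change was -0.27 ± 0.08 (SE; 95% interval -0.44 to -0.11; edgeR adjusted p = 0.0546), just outside the threshold. DESeq2 called Ccnd2 lower (adjusted p = 0.00569). So did edgeR with upper-quartile scaling (adjusted p = 0.0435), with no filter on low counts (0.0103), with cont220 and mut221 as a covariate (-0.27, 0.0196), and without cont212 (-0.34, adjusted p = 0.0297) or mut221 (-0.31, 0.0428). Its adjusted p ran from 0.00569 to 0.208 over 15 alternatives. Set against cont220 alone, the difference was larger, at -0.41 on the log2 scale (edgeR adjusted p = 0.122). The antisense gene 9330179D12Rik overlaps 1704 of its exonic bases and measured 0.629 ± 0.127 and 0.702 ± 0.283 CPM (SD, n = 3).

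Ccnd3 (chromosome 17, 47505051 to 47599691, plus strand), the D cyclin often retained in differentiating cells such as muscle, measured 272.8, 256.7 and 242.3 CPM across the controls, against 267.2, 290.6 and 271.8 CPM across the deletion libraries. The groups overlapped, and the log2 fold change was 0.10 ± 0.06 (SE; 95% interval -0.03 to 0.24; edgeR adjusted p = 0.342). Against cont220 alone, the lowest control, it was 0.19 (edgeR adjusted p = 0.432). Ccnd3 was higher at an unadjusted p under 0.05 by edgeR with embryo sex as a covariate (0.19, edgeR adjusted p = 0.322). The same held without cont212 (0.15, edgeR adjusted p = 0.238). A pseudogene, Ccnd3-ps, held 2.47 ± 0.0244 and 2.61 ± 0.429 CPM, and reads may be divided between the copies.

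The ratio of Ccnd1 to Ccnd3 was lower in every deletion library, but did not pass its test. The log2 ratio of Ccnd1 to Ccnd3 was -0.34, -0.28 and -0.17 in the controls and -0.79, -0.73 and -0.57 in the deletion libraries, so the groups did not overlap. The mean difference was -0.43, with an exact two-sided permutation p = 0.1, the smallest that 3 against 3 libraries allow, and 0.267 adjusted over the 8 ratios computed. The ratio of Ccnd1 to Ccnd2 overlapped between groups (mean difference -0.05, exact permutation p = 0.7). Per kb of exon, the 3 D cyclins summed to 152, 157 and 165 CPM per kb in the controls and 128, 140 and 142 CPM per kb in the deletion libraries (exact permutation p = 0.1). The deletion libraries were all below the controls in this sum, at a mean log2 difference of -0.21. With the longest coding transcript as the length of each gene, the difference was -0.12.

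Which D cyclin was the most abundant per length depended on the gene model. With the union of all annotated exons, controls had 83.4 ± 8.17 CPM per kb of Ccnd2, 45.4 ± 0.447 of Ccnd1 and 29.3 ± 1.74 of Ccnd3 (SD, n = 3), in that order in every library. With the longest coding transcript, Ccnd3 came to 121.7 ± 7.22 CPM per kb and Ccnd2 to 123.9 ± 12.2, which did not differ beyond their spread, and Ccnd1 was lower at 57.2 ± 0.563. In the deletion libraries Ccnd3 was then highest, at 130.9 ± 5.88 CPM per kb against 102.5 ± 6.01 for Ccnd2.

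**Figure D2:**
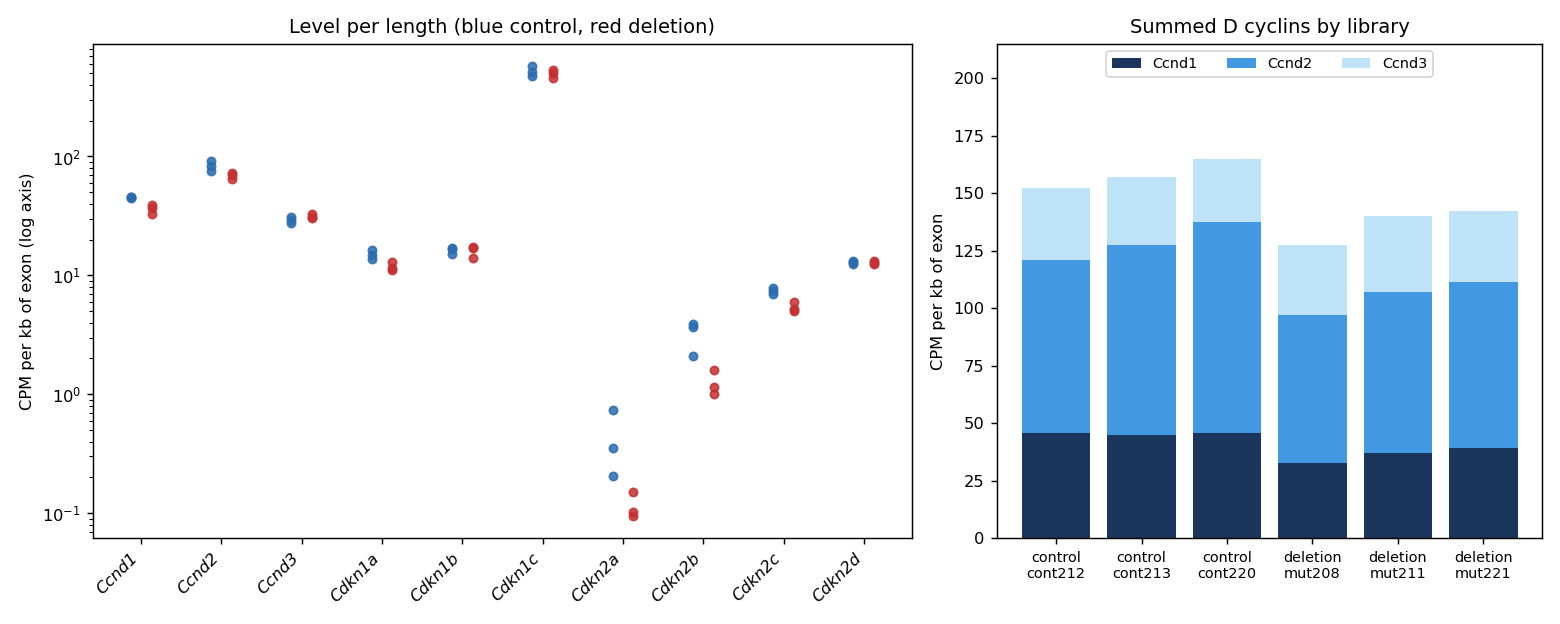
Left, CPM per kb of exon (log axis) of the 10 genes, with points for libraries, blue for control and red for deletion. Right, the same unit summed over Ccnd1, Ccnd2 and Ccnd3 in each library, on an axis from 0. Cdkn1c lies highest and Cdkn2a lowest in all libraries, and the summed bars are shorter in the 3 deletion libraries (128 to 142) than in the controls (152 to 165).

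Of the CIP/KIP inhibitors, Cdkn1a fell and Cdkn1b and Cdkn1c did not pass. Cdkn1a (chromosome 17, 29090976 to 29100727, plus strand) encodes p21, an inhibitor induced by p53 and at cell cycle exit. It measured 53.1, 58.0 and 48.9 CPM across the controls, against 39.0, 46.1 and 41.2 CPM across the deletion libraries. The groups were separate by a small margin, since cont220 was the lowest control and mut211 the highest deletion library. The fall was 1.27-fold, or by -0.34 ± 0.08 on the log2 scale (SE; 95% interval -0.52 to -0.16; edgeR adjusted p = 0.0295). With cont220 as the sole control it was -0.21, smaller by over 1.5 times (edgeR adjusted p = 0.492). The call was also lost without cont212 (-0.34, edgeR adjusted p = 0.0719), cont213 (-0.28, 0.154), mut208 (-0.29, 0.125) or mut221 (-0.33, 0.0520), with a range of 0.00202 to 0.492 over 15 alternatives.

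Cdkn1b (chromosome 6, 134920401 to 134925513, plus strand) encodes p27, which holds cells in quiescence and is controlled largely by protein degradation. It measured 69.2, 77.3 and 76.0 CPM across the controls, against 76.7, 78.1 and 64.1 CPM across the deletion libraries, with overlapping groups. The log2 fold change was -0.02 ± 0.08 (SE; edgeR adjusted p = 0.905), and the 95% interval of -0.19 to 0.15 bounds the difference in either direction. Against cont220 alone it was -0.057 (edgeR adjusted p = 0.889). Its sign turned without cont213 (0.0073) and without mut221 (0.063). The log2 ratio of Cdkn1a to Cdkn1b was -0.38, -0.42 and -0.64 in the controls and -0.98, -0.76 and -0.64 in the deletion libraries, cont220 and mut221 being nearly equal. The mean difference in that ratio was -0.31 (exact permutation p = 0.1, adjusted over 8 ratios 0.267).

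Cdkn1c (chromosome 7, 143458339 to 143461050, minus strand) encodes p57 and was the most abundant of the 10 genes per length. It measured 1166.5, 1050.3 and 963.6 CPM across the controls, against 927.5, 1099.2 and 1028.3 CPM across the deletion libraries, so the groups overlapped throughout. The log2 fold change was -0.06 ± 0.08 (SE; 95% interval -0.24 to 0.12; edgeR adjusted p = 0.743). Measured against cont220 only it was 0.082 (edgeR adjusted p = 0.814), and without cont212 it was 0.016 and without mut208 0.0053, so its direction is not fixed. Per kb of exon it reached 519.9 ± 49.9 CPM per kb in controls and 499.4 ± 42.3 in deletion libraries, 94.3% and 94.7% of the summed CIP/KIP level. The summed level therefore followed Cdkn1c, at 551.2 ± 49.6 and 527.3 ± 43.3 CPM per kb (exact permutation p = 0.5). Of 8 genes of the imprinted cluster around Cdkn1c, 0 passed by edgeR (0 at an unadjusted p under 0.05, and 0 by DESeq2). Kcnq1ot1, the paternally expressed RNA that silences Cdkn1c in cis, had the smallest p there, at 69.6 ± 2.80 and 84.7 ± 18.0 CPM (SD, n = 3; log2 fold change 0.28, edgeR adjusted p = 0.356).

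The INK4 genes had the lowest summed level of the 3 families, and 2 of the 4 fell, Cdkn2b and Cdkn2c. Cdkn2b (chromosome 4, 89306299 to 89311039, minus strand) encodes p15, an inhibitor that TGF-beta induces in epithelial cells. Its estimated counts were 258, 266 and 132 in the controls and 112, 73 and 63 in the deletion libraries, or 5.13, 5.38 and 2.90 CPM against 2.24, 1.599 and 1.41 CPM. cont220 lay nearer to mut208 than to the other controls, though still above every deletion library. Cdkn2b fell 2.55-fold (log2 fold change -1.35 ± 0.27 SE; 95% interval -1.94 to -0.76; edgeR adjusted p = 0.0139), the largest fall among the 4 called genes. Set against cont220 alone the log2 fold change was -0.73 (edgeR adjusted p = 0.439), which is smaller by over 1.5 times. The call was also lost without cont213 (-1.20, edgeR adjusted p = 0.0823) and without mut211 (-1.29, 0.0578), and the adjusted p ran from 6.40e-05 to 0.439 over 15 alternatives.

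Cdkn2a (chromosome 4, 89274471 to 89294653, minus strand), the neighbour of Cdkn2b, encodes p16INK4a and, through another first exon and reading frame, p19ARF, which stabilises p53. Gene counts do not separate these products. Cdkn2a was near the limit of detection, with 21, 43 and 11 estimated counts in the controls and 6, 8 and 5 in the deletion libraries, or 0.417, 0.869 and 0.242 CPM against 0.120, 0.175 and 0.112 CPM. The groups did not overlap, and cont220 was again the lowest control. The log2 fold change was -1.90 ± 0.57 (SE; 95% interval -3.15 to -0.65) and did not pass (edgeR adjusted p = 0.0710). It passed without cont220 (-2.22, edgeR adjusted p = 0.0400) and with no filter on low counts (-1.89, 0.0430), and against cont220 alone it was -0.82 (0.777). The log2 ratio of Cdkn2b to Cdkn2a overlapped between groups (3.62, 2.63 and 3.58 in controls, 4.22, 3.19 and 3.66 in deletion libraries; exact permutation p = 0.4). Of the other genes beside the pair, Mtap differed by -0.01 (edgeR adjusted p = 0.940) and Dmrta1 by 1.03 (0.0673) on the log2 scale, from 0.844 ± 0.299 to 1.72 ± 0.204 CPM. By edgeR neither passed, while Dmrta1 was higher at an unadjusted p = 0.00599 and DESeq2 called 1 of the 2 higher and 0 lower.

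Cdkn2c (chromosome 4, 109660876 to 109667189, minus strand) encodes p18, an inhibitor that rises in differentiating muscle cells in culture. It measured 19.9, 20.9 and 18.6 CPM across the controls, against 13.6, 14.1 and 16.0 CPM across the deletion libraries. The groups did not overlap, and cont220 was the lowest control. Cdkn2c fell 1.36-fold (log2 fold change -0.45 ± 0.09 SE; 95% interval -0.65 to -0.24; edgeR adjusted p = 0.0161). Against cont220 alone the value was -0.35 (edgeR adjusted p = 0.358). It did not pass without cont213 (-0.41, edgeR adjusted p = 0.1001), mut208 (-0.40, 0.0820) or mut211 (-0.42, 0.0663), with a range of 0.00123 to 0.358 over 15 alternatives.

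Cdkn2d (chromosome 9, 21288410 to 21291407, minus strand) encodes p19INK4d, the INK4 protein that oscillates with the cell cycle. Its spread was narrow, at 20.7, 20.2 and 19.7 CPM across the controls, against 20.02, 19.5 and 20.6 CPM across the deletion libraries. The log2 fold change was -0.01 ± 0.07 (SE; 95% interval -0.17 to 0.15; edgeR adjusted p = 0.954). With cont220 as the sole control its sign turned, at 0.025 (edgeR adjusted p = 0.958). Cdkn2c and Cdkn2d thus stood at nearly the same CPM in controls and apart in deletion libraries. Their log2 ratio was -0.05, 0.05 and -0.08 in the controls and -0.56, -0.47 and -0.36 in the deletion libraries, with a mean difference of -0.44 (exact permutation p = 0.1, adjusted over 8 ratios 0.267). Per kb of exon, Cdkn2d made up 53.4%, 50.9% and 57.6% of the summed INK4 level in the controls and 65.3%, 65.5% and 64.9% in the deletion libraries (exact permutation p = 0.1). The sum itself was 24.6, 25.2 and 21.8 CPM per kb in the controls and 19.5, 18.9 and 20.2 CPM per kb in the deletion libraries, all of the latter lower (exact permutation p = 0.1).

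**Figure D3:**
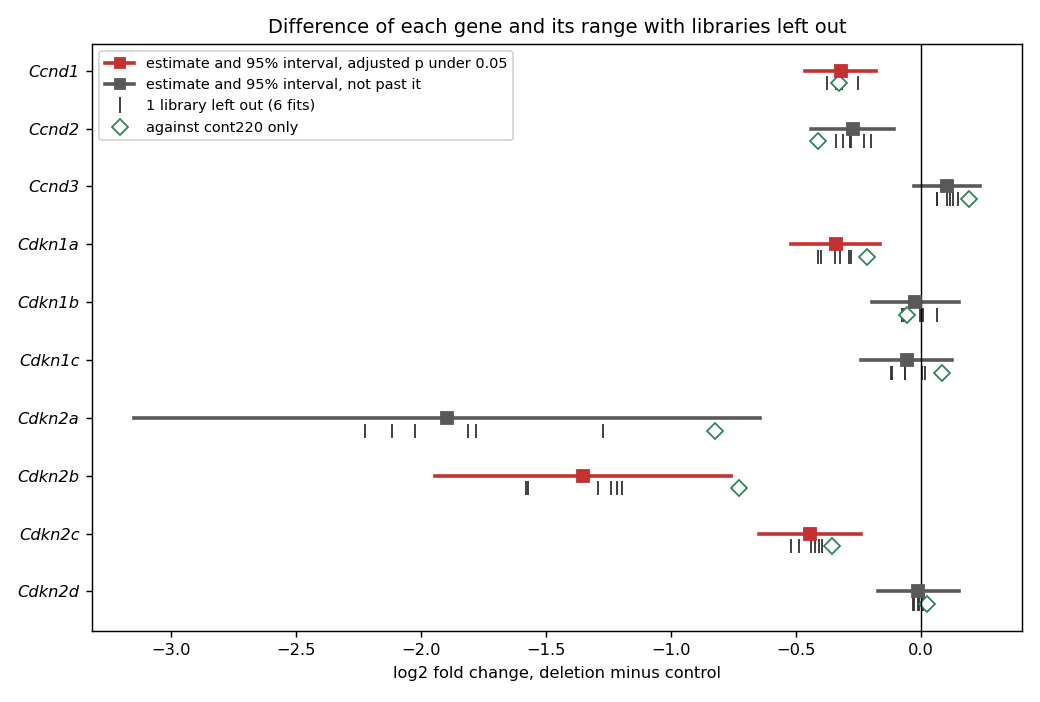
Log2 fold change (deletion minus control) of the 10 genes with 95% intervals, red where the adjusted p was under 0.05. Black ticks are the 6 fits with 1 library left out, and green diamonds the fits against cont220 alone. For Cdkn1a, Cdkn2a, Cdkn2b and Cdkn2c the diamonds (-0.21, -0.82, -0.73 and -0.35) lie nearer 0 than every tick. For Ccnd2 (-0.41) and Ccnd3 (0.19) they lie farther from 0 than every tick, and for Ccnd1 (-0.33) beside the full estimate.

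The sequences just upstream of the start sites are shown for the called genes that had an entry among the RefSeq promoter windows, and for Cdkn2d as the INK4 gene with the smallest difference. Of the 10 genes, 7 had an entry. Each is the 250 bases before a RefSeq start on GRCm38.p6, written 5′ to 3′ on the gene's strand. Capitals mark a match, on either strand, to the GC box GGGCGG, the TATA box TATAAA, the E-box CACGTG, the cyclic AMP response element TGACGTCA, the CCAAT box CCAAT or the E2F motifs TTTCCCGC and TTTGGCGC. A TTTCCCGC match can overlap a GC box.
Cdkn1a, chr17:29093519-29093768, plus strand: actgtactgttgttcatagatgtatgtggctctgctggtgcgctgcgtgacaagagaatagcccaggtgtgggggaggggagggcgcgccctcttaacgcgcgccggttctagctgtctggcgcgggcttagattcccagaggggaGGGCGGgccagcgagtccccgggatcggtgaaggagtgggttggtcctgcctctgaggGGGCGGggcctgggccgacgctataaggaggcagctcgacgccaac
Cdkn2b, chr4:89311033-89311282, minus strand: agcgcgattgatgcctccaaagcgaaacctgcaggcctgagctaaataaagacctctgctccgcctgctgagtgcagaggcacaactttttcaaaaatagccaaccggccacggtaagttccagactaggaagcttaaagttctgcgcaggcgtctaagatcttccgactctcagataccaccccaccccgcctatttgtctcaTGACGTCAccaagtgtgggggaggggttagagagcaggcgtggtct
Cdkn2c, chr4:109666757-109667006, minus strand: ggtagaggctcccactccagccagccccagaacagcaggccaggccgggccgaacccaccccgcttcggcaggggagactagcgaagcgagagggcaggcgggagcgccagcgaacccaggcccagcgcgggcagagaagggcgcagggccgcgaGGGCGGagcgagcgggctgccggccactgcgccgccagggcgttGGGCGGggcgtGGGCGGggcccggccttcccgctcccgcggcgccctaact
Cdkn2d, chr9:21291210-21291459, minus strand: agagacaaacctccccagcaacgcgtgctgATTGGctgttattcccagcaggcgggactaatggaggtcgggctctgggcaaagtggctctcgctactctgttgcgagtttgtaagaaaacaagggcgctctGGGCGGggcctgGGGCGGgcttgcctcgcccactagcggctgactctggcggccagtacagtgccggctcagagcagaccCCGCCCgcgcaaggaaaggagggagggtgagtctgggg

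These windows differ in their letters. Cdkn1a held 2 GC boxes at the second of its 2 listed starts, the one shown, and 0 at the first. Cdkn2c held 3 at the first of its 2 starts, the one shown, and 0 at the second, so these counts depend on the start chosen. Cdkn2d held 3. Cdkn2b held 0 and was the only 1 of the 4 windows shown with a cyclic AMP response element, which begins 46 bases before the start. Of all 32851 promoter windows of this length, 32.7% held a GC box, 1.55% the cyclic AMP response element and 33.8% a CCAAT box, of which Cdkn2d had 1. TATAAA (12.4% of windows), CACGTG (6.02%), TTTCCCGC (0.895%) and TTTGGCGC (0.417%) had no match in the 4. GC content was 64.8% for Cdkn1a, 53.6% for Cdkn2b, 77.2% for Cdkn2c and 63.6% for Cdkn2d. These matches describe letters, not binding.

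Other genes of the G1 machinery were measured in the same test, in which 7.01% of all tested genes were called in either direction. Of 94 genes in 9 lists of partners, regulators and targets, all tested, 6 were higher and 1 lower, where 3.65% and 3.37% of all tested genes were. None of the 10 kinases and cyclin partners of G1 passed by edgeR (1 higher and 3 lower at an unadjusted p under 0.05, 0 by DESeq2). The 3 lower were Cdk6, a kinase partner of the D cyclins, and the E cyclins Ccne1 and Ccne2, at -0.18 (edgeR adjusted p = 0.185), -0.19 (0.172) and -0.17 (0.174) on the log2 scale. The smallest p was that of Cdk2, the partner of cyclins E and A, at 97.4 ± 1.95 and 106.8 ± 2.85 CPM (SD, n = 3; log2 fold change 0.13, edgeR adjusted p = 0.123). Of 13 retinoblastoma family and E2F genes, 1 fell: E2f7, an E2F that represses transcription, from 47.1 ± 0.836 to 38.8 ± 1.85 CPM (log2 fold change -0.28, edgeR adjusted p = 0.0204). Of 10 genes for the turnover of D cyclins and inhibitors, 0 passed by edgeR, at an unadjusted p under 0.05 or by DESeq2, with the smallest p for Fbxo4, a ubiquitin ligase subunit reported to act on cyclin D1 (log2 fold change -0.30, edgeR adjusted p = 0.296). None of 10 proliferation markers passed either (0 at an unadjusted p under 0.05, 0 by DESeq2), and their median log2 fold change was 0.0042. Mcm5, a subunit of the replicative helicase, had the smallest p among them (0.11, edgeR adjusted p = 0.310).

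Of 23 measured regulators of these genes, 3 rose and 0 fell, beside 3.65% and 3.37% of all tested genes. At an unadjusted p under 0.05, 4 were higher and 2 lower, and DESeq2 called 3 higher and 1 lower. The 2 lower at an unadjusted p were Klf4, a zinc-finger factor that can activate Cdkn1a, and Foxo3, a relative of Foxo4, at log2 fold changes of -0.36 (edgeR adjusted p = 0.0768) and -0.13 (0.141). Tcf7l2, a DNA-binding partner of beta-catenin, which can activate Ccnd1, went from 50.6 ± 3.58 to 70.6 ± 3.60 CPM (SD, n = 3; log2 fold change 0.48, edgeR adjusted p = 0.00241). Foxo4, a forkhead factor that can activate Cdkn1b, rose from 63.2 ± 2.43 to 77.7 ± 3.11 CPM (0.30, edgeR adjusted p = 0.0102). Foxo4 lies on chromosome X, and cont212 and cont213 differ in sex from every deletion library. It measured 61.0, 62.8 and 65.8 CPM in cont212, cont213 and cont220, against 78.8, 80.1 and 74.1 CPM in mut208, mut211 and mut221. Whether sex had a part in this rise was not tested. Dmtf1, a cyclin D-binding factor that can activate the ARF promoter of Cdkn2a, rose from 101.9 ± 2.95 to 123.6 ± 9.85 CPM (0.28, edgeR adjusted p = 0.0214). Of the genes named as targets of these 3 factors, Ccnd1 was called lower, and Cdkn1b and Cdkn2a were not called, Cdkn2a being near the limit of detection. A link between these factors and the levels of those genes was not tested.

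Other p53 targets lay on the opposite side of 0 from Cdkn1a. All 12 measured had log2 fold changes above 0 (0.027 to 1.01, median 0.15), and 2 passed. Of all tested genes, 3.65% were called higher and 3.37% lower, with a median log2 fold change of -0.00013. Trp53inp1, a p53-induced nuclear protein, rose from 51.35 ± 0.9753 to 65.9 ± 2.58 CPM (SD, n = 3; log2 fold change 0.36, edgeR adjusted p = 0.00428), and Eda2r, a receptor of the tumour necrosis factor family, from 2.20 ± 0.402 to 4.40 ± 0.536 CPM (1.01, edgeR adjusted p = 0.0117). Cdkn1a, at -0.34, was thus called lower while none of these was. Among 6 TGF-beta response genes, the group to which Cdkn2b also belongs, 1 rose and 0 fell: Tgfbi, a secreted matrix protein, from 148.5 ± 7.41 to 172.2 ± 3.91 CPM (0.21, edgeR adjusted p = 0.0356).

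**Figure D4:**
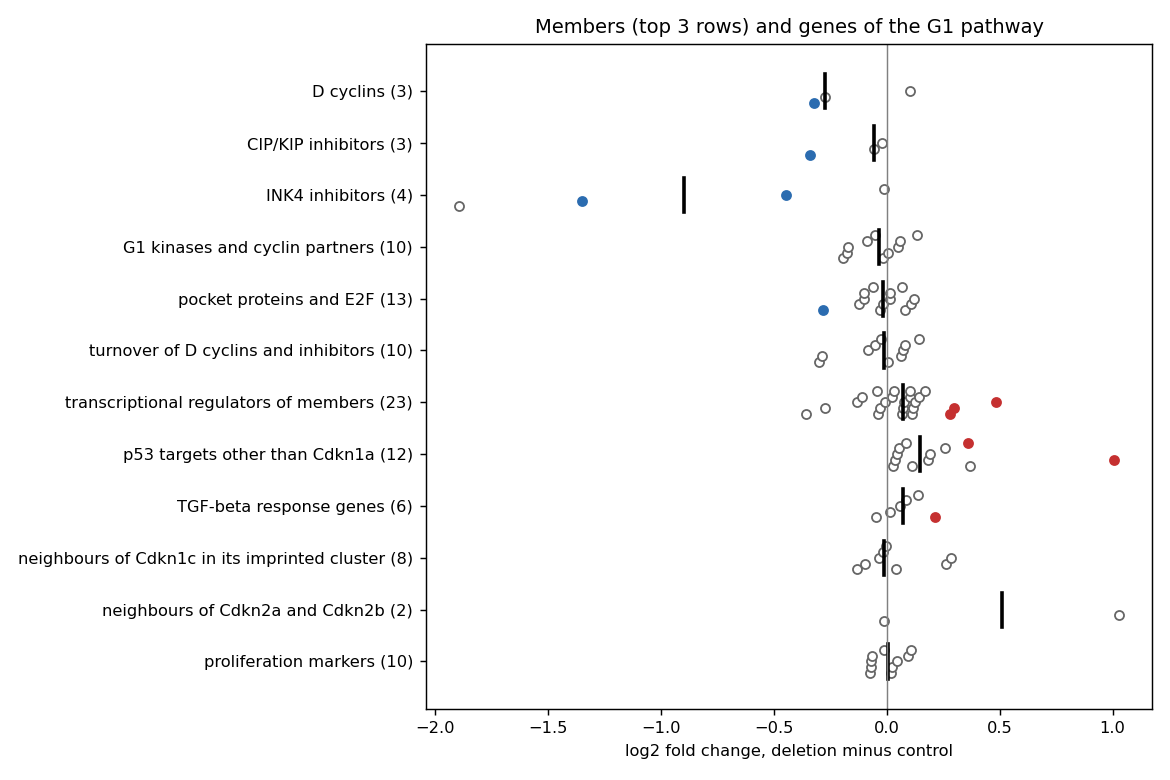
Log2 fold change (deletion minus control) of the 10 genes, in the top 3 rows, and of the other G1 pathway genes by list, with the number tested in brackets. Red and blue points were higher and lower at an adjusted p under 0.05, open points did not pass, and black bars are medians. The INK4 genes spread from -1.90 to -0.01, and the proliferation markers have a median of 0.0042.

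Some genes outside the group had nearly the same profile over the 6 libraries, by the root mean square difference of centred log2 CPM among 12727 named genes. Nearest to Ccnd1 were Csrp1 (difference 0.025) and Churc1 (0.030), against a range of 0.48 for Ccnd1 itself. Nearest to Cdkn1a were Vwa8 (0.040) and Cybrd1 (0.045), and to Cdkn2c Trim29 (0.020) and Dap (0.029). Cdkn2b, with a range of 1.90, had Myb (0.16) and Tekt1 (0.18) as its nearest, so its profile was matched less closely. Myb went from 21.2 to 9.86 mean CPM and Tekt1 from 4.97 to 1.98.

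Markers of other cell types moved between the same groups, where 3.65% of all tested genes were called higher and 3.37% lower. The 7 skeletal muscle markers summed to 170.8 to 193.1 CPM in controls and 339.6 to 493.9 CPM in deletion libraries, and 5 of 7 rose. The 6 cartilage markers summed to 253.2 to 384.7 and 604.1 to 678.8 CPM, and 4 of 6 rose. Bone markers summed to 4438 to 5887 and 2703 to 3542 CPM, with 0 of 5 tested called by edgeR (4 at an unadjusted p under 0.05, 4 by DESeq2), and epithelial markers to 992.4 to 1048 and 588.7 to 811.2 CPM, with 3 of 6 lower. Markers of endothelium, red cells, neurons and glia and macrophages had 0 called by edgeR, of 4, 5, 4 and 3 (2, 0, 2 and 0 at an unadjusted p under 0.05, and 1, 0, 2 and 0 by DESeq2). Of the 6 palate mesenchyme markers, 0 were called by edgeR (2 higher at an unadjusted p under 0.05, 1 higher by DESeq2). No marker was at 0 in all libraries. The part of these shifts in the falls of Ccnd1, Cdkn1a, Cdkn2b and Cdkn2c was not tested.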

How the data were processed

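The tools named are STAR 2.4.1d, CASAVA 1.8.2 and Partek, with the build mm10, per the submitters' processing notes. For the counting tool, annotation and strand setting the sources used here give nothing. The authors deposited estimated counts (expected counts) per gene symbol, not normalized, whose column names give a group but no sample. Columns of no sample or group numbered 0. Counts were rounded, filtered with filterByExpr (minimum count 10, minimum total 15), scaled by TMM and tested with edgeR 4.0.16's quasi-likelihood F test (robust, no covariate, R 4.3.3), with Benjamini-Hochberg adjustment over 19284 genes and a threshold of 0.05. SE is the fold change over the square root of F. Sums, shares and ratios used exact two-sided permutation over libraries. Gene positions and exon lengths are GENCODE M21 (GRCm38, the assembly mm10 names), and promoters are RefSeq GRCm38.p6. Named genes were the 10 members, the up to 3 of smallest p past the threshold in each pathway list (or the 1 of smallest p), and the 2 nearest profiles of each called member. Mtap, Cdk6, Ccne1, Ccne2, Klf4 and Foxo3 fall outside it and were picked with their values known. Members and lists were chosen with earlier results of these data known. The test was checked on simulated data, with 50 genes altered at each size. It recovered 14% of the genes altered 1.2-fold, 66% at 1.5-fold, 80% at 2-fold and 98% at 4-fold. Genes called in error numbered 19 among the 19284 run. Differences near 1.2-fold were thus mostly missed, so a gene that was not called is not shown to be unchanged. Replicate pairs differed by more than sampling noise (chi-square over its degrees of freedom, 7.83 to 37.9). Alternatives were DESeq2 1.42.0 and limma 3.58.1 voom, other scalings and filters, covariates, libraries left out and, chosen after seeing the data, the longest coding transcript as length.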

Additional observations from a re-analysis of the deposited data

How the results depend on the processing

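The count of 1352 genes called became 2075 with the DESeq2 Wald test, 129 with embryo sex as a covariate and 89 without both controls of the other sex, and ran from 356 to 1872 with 1 library left out. The 4 members called lower became 0 with the sex covariate. At an unadjusted p under 0.05 by edgeR, that fit had Ccnd1, Ccnd2, Cdkn2b and Cdkn2c lower and Ccnd3 higher (0.19). The fit without both controls measures the same contrast against cont220. With 1 library left out, the members called lower ran from 0 to 5. Under alternatives other than the sex covariate, the fit against cont220 alone and the fits with 1 library left out, 4 to 6 were lower. The fold changes of Cdkn1c and Cdkn2d turned to 0.080 and 0.023 with the sex covariate and to 0.082 and 0.025 without both controls. With 1 library left out, they ran from -0.12 to 0.016 and from -0.031 to 0.0068, and that of Cdkn1b from -0.076 to 0.063. Also crossing 0 were the differences in the summed CIP/KIP level (-0.13 to 0.0024, log2), the share of Cdkn1b in it (-0.153 to 0.274 percentage points) and the ratios of Ccnd1 to Ccnd2 (-0.12 to 0.018) and Cdkn1c to Cdkn1b (-0.13 to 0.090). The other members kept their direction under every alternative run. The cause of these changes was not tested. With cont220 and mut221, which the second principal component sets apart, as a covariate, 5 members were lower, Ccnd2 being added. No paired analysis was possible because the columns carry none of the labels' replicate numbers.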
